A study of Drosophila melanogaster with 9 samples.

Results

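The proteasome is the large protease that degrades ubiquitin-tagged proteins in the cytosol and nucleus of every cell. Its barrel-shaped 20S core is built of rings of alpha subunits, which gate the entrance, and rings of beta subunits, some of which carry the cutting sites. The 19S regulatory particle caps the core: its lid and base bind ubiquitin chains, remove them, unfold the substrate and feed it in. In flies, as in mammals, the transcription factor cnc, an Nrf family member, is known to raise subunit genes together when proteasome activity is short, and Drosophila carries extra subunit paralogs, several of them known from the testis.

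Proteasome genes were taken as the rows whose symbol begins with Prosalpha or Prosbeta, or with Rpn or Rpt and a digit. This gave 17 of the 10221 genes in the deposited table. Of these, 9 are standard subunits: 6 of the core (Prosalpha1, Prosalpha2, Prosbeta1, Prosbeta5, Prosbeta6 and Prosbeta7) and 3 of the regulatory particle (Rpn8, Rpn11 and Rpn13). The other 8 are paralogs, marked by an R or T after the number. A further 31 genes that RefSeq names by the same rule, all 6 standard Rpt ATPases among them, are not analysed here. The exception is Prosalpha1R, described below under its synonym CG30382.

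The study profiled pools of more than 200 whole Drosophila melanogaster embryos, from stage 16 to a stage labelled AFT. The control was heterozygous for the Insc-Gal4 driver over OregonR. In Quad the driver acted on UAS-ase, UAS-Kr, UAS-wor and UAS-SoxN, and in Hexa on these plus UAS-hb and UAS-nub. All groups carried the driver, which is active in neuroblasts, the neural stem cells, while RNA came from the whole embryo. There were 3 libraries per group, which the labels call biological replicates. The labels place control, Quad and Hexa in experiments 1, 2 and 3, so experiment and genotype cannot be told apart. The series text instead speaks of 2 experiments, each a comparison with a control, and the 3 control libraries given here serve both comparisons. One set of columns that was not used names another driver, da, for controls 2 and 3, against their titles; the columns used name OregonR for all 3 controls.

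Deposited counts summed to between 8555639 and 11687961 reads per library. Levels are the authors' RPKM, reads scaled for transcript length and sequencing depth, with mean ± SD over n = 3 libraries, and differences are of log2(RPKM + 0.1), which understates changes of low genes. Of the misexpressed genes, wor and ase rose in both groups, SoxN rose in Quad, and hb and nub rose in Hexa, while Kr was not higher in either and fell in Hexa (log2 -0.56, adjusted p = 0.0213). Late embryonic tissue was present by the muscle genes Mhc and Act57B and the cuticle gene TwdlX, while the neuron markers on the list had no row analysed here. Libraries differed in a list of 16 heat shock genes: relative to the control mean, its mean log2 level was 0.25, -0.66 and 0.41 in controls 1 to 3, 0.74, -0.83 and -0.24 in Quad and 0.84, 2.28 and 2.62 in Hexa. Marker lists also moved in Hexa against control, where 19.1% of all tested genes rose and 13.1% fell: 2 of 3 tested neuroblast genes and 2 of 5 midgut genes rose, while 3 of 5 genes of blood and fat body, 2 of 6 of the epidermis, 2 of 5 of early germ cells and 1 of 3 of muscle fell. In Quad against control 2 of 5 midgut and 2 of 6 epidermis genes fell and 1 of 3 neuroblast genes rose, where 4.68% of all tested genes passed in either direction. Their part in the results below was not tested. In such bulk libraries more cells of a type and more RNA per cell cannot be told apart.

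The standard subunits were moderately abundant and close to each other. In the controls their means lay between 21.0 and 46.3 RPKM, and in every library each of them stood above at least 81.4% of all genes in the table. Highest were Prosbeta7, a core subunit without a cutting site, at 46.3 ± 6.11 RPKM and Prosalpha2, of the gating ring, at 46.0 ± 2.67. Rpn11, the lid enzyme that removes ubiquitin from substrates, followed at 42.1 ± 4.36 RPKM. Next in order stood Rpn13, a ubiquitin receptor, at 39.6 ± 3.89, Prosbeta6, which has no cutting site, at 39.1 ± 6.10, and Prosbeta1, which carries the caspase-like site, at 38.9 ± 7.90. Prosbeta5, with the chymotrypsin-like site, had 33.3 ± 4.68 RPKM and Rpn8, the partner of Rpn11 in the lid, 31.4 ± 2.64. Down to Rpn8, each mean lay within the larger SD of its neighbour in this order. Prosalpha1, of the gating ring, was lowest at 21.0 ± 1.95, and its controls lay below every control of the other standard subunits.

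The low level of Prosalpha1 stood beside that of a copy. RefSeq places a gene named Prosalpha1R next to Prosalpha1 with no gene between them, and its synonym CG30382 is a row of the table that the symbol rule does not take; it was added after its values were seen. CG30382 had 17.4 ± 1.85 RPKM in the controls. The 2 genes summed to 39.1, 34.2 and 41.7 RPKM in controls 1, 2 and 3, within the range of the other standard subunits. How the authors assigned reads of near-identical copies is not known from the labels or headers, which makes the split between the 2 uncertain. Annotated genes on the opposite strand overlap Prosalpha1, Prosalpha2, Prosbeta1, Prosbeta5 and Rpn8, and strand use in the counting is not stated either.

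Within a group the standard subunits varied less, in the median, than tested genes of all levels. Their coefficient of variation over the 3 libraries had a median of 10.4% for controls, 5.81% for Quad and 10.2% for Hexa. The median over all tested genes was 15.3, 9.93 and 16.2%. Genes of like level were not compared, and Prosbeta1 had 20.3% in the controls. The variation of the standard subunits was shared. Control 2 was the lowest of the 9 libraries for 9 of 9 standard subunits, and Hexa 2 was the highest for 9 of 9. Over all tested genes control 2 was lowest in 18.2% and highest in 24.2%, and Hexa 2 was highest in 22.4% and lowest in 24.1%. The spread among them was similar in all libraries: the highest standard subunit of a library stood 1.89 to 2.38-fold above the lowest.

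**Figure D1:**
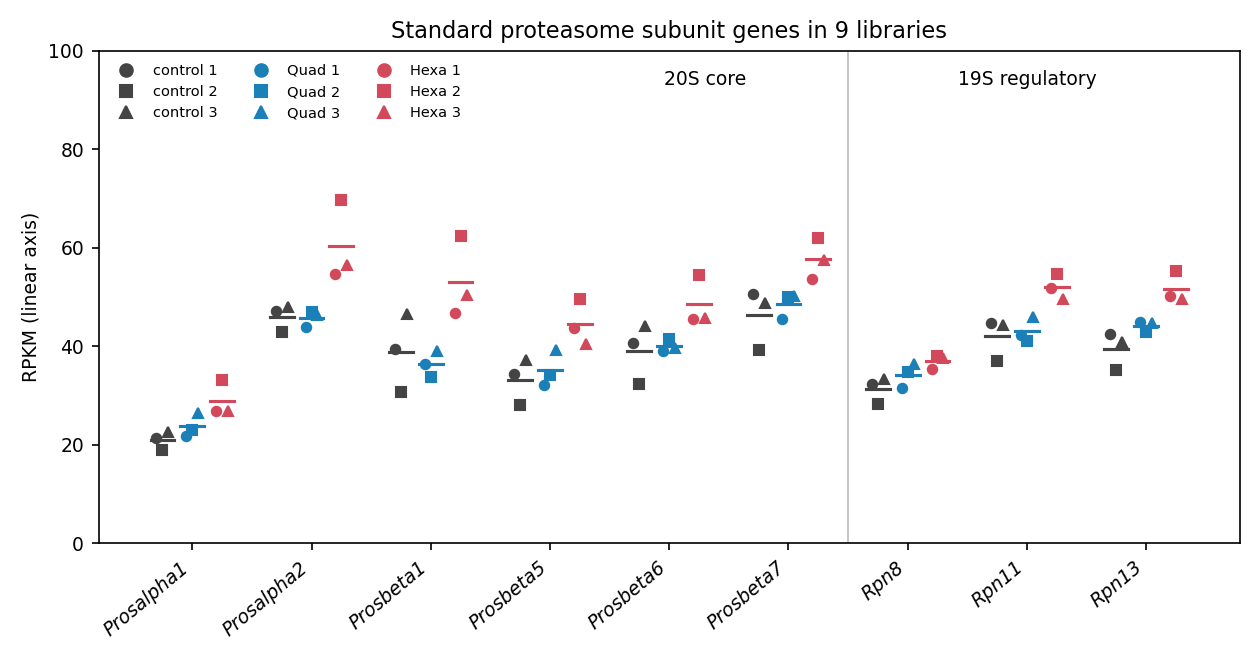
RPKM of the 9 standard subunit genes in each library (points; circle, square and triangle are libraries 1, 2 and 3) with the group mean (line), for controls (grey), Quad (blue) and Hexa (red) on a linear axis that starts at 0. Squares of control 2 are the lowest and squares of Hexa 2 the highest for each of the 9 genes.

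Quad was compared with the control to ask what the 4-gene misexpression does. No proteasome gene differed past the threshold. Of the 17 genes, 10 had at least 0.5 RPKM in at least 3 libraries and were tested, the 9 standard subunits and the paralog Prosbeta2R2. Of the 10, 0 passed in limma (Benjamini-Hochberg adjusted p under 0.05 over 6190 genes, where 4.68% of genes passed in either direction), 0 had an unadjusted p under 0.05, and edgeR and DESeq2 on the deposited counts called 0. Each gave an adjusted p for another set of 10 of the 17 genes, with Prosalpha4T1, Rpn13R and Rpt6R and without Rpn13, Rpn8 and Prosbeta7, which have few or no reads in the count column. The median log2 difference of the standard subunits was 0.08, against 0.02 over all tested genes. Their 95% intervals together ran from 0.731-fold, the lower bound of Prosbeta1, to 1.39-fold, the upper bound of Prosalpha1, so larger changes of the standard subunits lie outside these intervals.

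Among the 10 tested genes Rpn13 had the lowest adjusted p. It had 42.6, 35.2 and 40.9 RPKM in the controls and 44.9, 42.9 and 44.7 in Quad. All Quad libraries stood above all controls, as 15.2% of tested genes did, but the log2 difference of 0.16 ± 0.107 (SE) did not pass (adjusted p = 0.437). The other 8 standard subunits overlapped between Quad and control. The median of the standard subunits turned to -0.04 without control 2, the library in which they were lowest.

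Hexa was compared with the control to ask what the 6-gene misexpression does. Here the standard subunits stood higher as a group. For 9 of 9 standard subunits all Hexa libraries exceeded all controls, where 28.0% of tested genes did so. Of the 9, 4 rose and none fell in limma, where 19.1% of tested genes rose and 13.1% fell. The median log2 difference was 0.38, against 0.03 over all tested genes, and the folds ran from 1.18 for Rpn8 to 1.38 for Prosalpha1.

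Among the gating subunits, both rose. Prosalpha1 had 21.3, 18.9 and 22.7 RPKM in the controls and 26.9, 33.2 and 26.8 in Hexa. Hexa 2 was the highest and the groups did not overlap (log2 0.46 ± 0.132, adjusted p = 0.0298). Its neighbour CG30382, with 25.4 ± 3.41 RPKM in Hexa, also rose (log2 0.55, adjusted p = 0.0265). Prosalpha2 had 47.2, 42.9 and 47.9 RPKM in the controls and 54.8, 69.6 and 56.5 in Hexa, again with Hexa 2 apart from the others (log2 0.38 ± 0.116, adjusted p = 0.0356).

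Of the beta subunits 1 of 4 rose. Prosbeta5, the subunit with the chymotrypsin-like site, had 34.3, 28.1 and 37.3 RPKM in the controls and 43.8, 49.5 and 40.5 in Hexa (log2 0.43 ± 0.140, adjusted p = 0.0435). Prosbeta1, with the caspase-like site, had a difference as large, but its controls spread from 30.7 to 46.5 RPKM, nearly reaching the lowest Hexa library at 46.8 (log2 0.46 ± 0.167, adjusted p = 0.0598). The non-catalytic Prosbeta6 and Prosbeta7 did not pass at log2 0.32 and 0.33 (adjusted p = 0.0876 and 0.0654). Prosbeta6 went from 39.1 ± 6.10 to 48.6 ± 5.11 RPKM, and Prosbeta7 from 46.3 ± 6.11 to 57.8 ± 4.18.

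Of the regulatory subunits 1 of 3 rose. Rpn13, the ubiquitin receptor, had 50.2, 55.4 and 49.5 RPKM in Hexa, above the controls of 35.2 to 42.6 (log2 0.39 ± 0.107, adjusted p = 0.0262). Rpn11 stood at 52.0 ± 2.60 RPKM in Hexa (log2 0.31 ± 0.111, adjusted p = 0.0556). Rpn8 had the smallest difference, from 31.4 ± 2.64 to 37.0 ± 1.40 RPKM (log2 0.24 ± 0.106, adjusted p = 0.0984).

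These calls are near the threshold and depend on single libraries. Of the 9 standard subunits, 4 were called with all libraries. Without Hexa 1, without Hexa 2 or without control 2 the number was 0, and without control 1 it was 1. Without any 1 of the Quad libraries, which enter only through the shared estimate of spread, it was 2. Calls over all tested genes fell as well, from 32.3% with all libraries. They were 16.2% without Hexa 1, 20.2% without Hexa 2, 27.3% without control 2 and 15.5% without control 1. Without a Quad library they were 23.93 to 25.25%. Direction did not depend on these libraries: without Hexa 2 the 9 standard subunits stood between log2 0.22 and 0.36 above the control, and without control 2 between 0.17 and 0.39.

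The difference moved with 2 measures of the libraries. The heat shock list was highest in Hexa. With its mean per library as a covariate 0 of the 9 were called, where 9.27% of all tested genes passed instead of 32.3%. In that fit 9 of 9 standard subunits kept a positive difference with a median of log2 0.22, while the SE of a subunit, in the median, went from 0.123 to 0.196. Relative to the control mean, the median of the standard subunits stood at 0.05, -0.18 and 0.09 in controls 1 to 3, at 0.01, 0.10 and 0.13 in Quad 1 to 3 and at 0.29, 0.49 and 0.30 in Hexa 1 to 3, to be read beside the heat shock means above. The summed RPKM of all genes in the table was also larger in Hexa, at 261000 to 304300 against 231600 to 257100 in the controls. As a share of that sum, the 9 standard subunits held 0.140, 0.127 and 0.142% for controls 1 to 3. Quad libraries stood at 0.143, 0.149 and 0.157% and Hexa libraries at 0.148, 0.158 and 0.159%. On this scale Hexa still lay above all controls but overlapped Quad. Dividing each library by its sum shifts all of its genes together. It lowered the median log2 difference of the standard subunits to 0.20 and that of all tested genes to -0.14. The distance between these 2 medians was 0.350 on RPKM as deposited and 0.344 after the division. Over all genes 733 calls were then higher and 1451 lower, against 1184 and 813 on RPKM as deposited. The part of heat shock and of library composition in the difference was not tested beyond these fits.

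**Figure D2:**
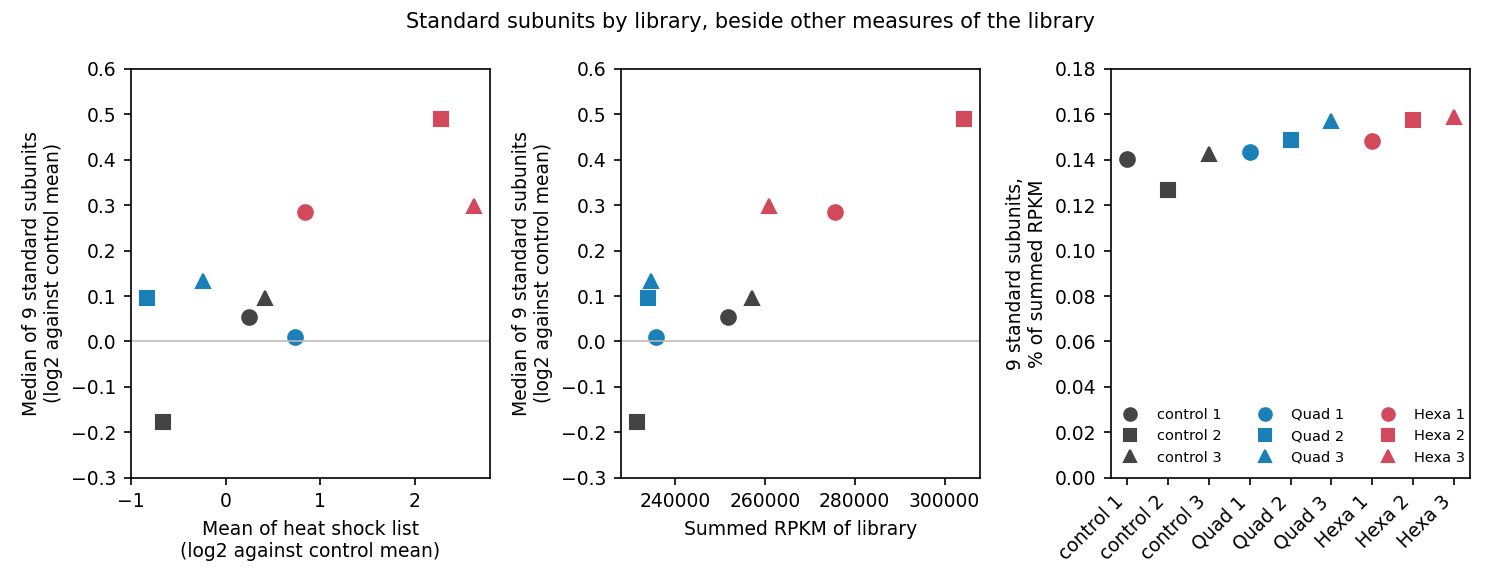
Left and middle, the median of the 9 standard subunits per library (log2 relative to the control mean) against the mean of the heat shock list and against the summed RPKM of the library; right, the share of the summed RPKM held by the 9 standard subunits. The 3 Hexa libraries (red) lie at 0.29 to 0.49 in the left and middle panels, above the other 6, while in the right panel, whose axis starts at 0, their 0.148 to 0.159% overlaps Quad (blue).

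Hexa was also compared with Quad, which differs by the hb and nub transgenes and shares the other 4. Of the shared 4, SoxN was lower in Hexa than in Quad (limma log2 -0.56, adjusted p = 0.0332), while ase, Kr and wor did not pass. The gene hb had 6.99, 2.83 and 1.81 RPKM in Quad 1 to 3, against 1.40 to 1.72 in the controls. The 2 groups are also labelled as different experiments. The Hexa libraries are the same as in the comparison above, so the 2 comparisons are not independent. For 8 of 9 standard subunits all Hexa libraries exceeded all Quad libraries, where 28.6% of tested genes did. Of the 9, 2 rose and none fell, where 13.5% of tested genes rose and 9.63% fell, and the median log2 difference was 0.27, against 0.06 over all tested genes.

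The 2 were core subunits. Prosbeta1 had 36.4, 33.8 and 39.2 RPKM in Quad, where it lay close together, and 46.8, 62.3 and 50.3 in Hexa (log2 0.53 ± 0.167, adjusted p = 0.0468). Prosalpha2 had 44.0, 46.9 and 46.3 RPKM in Quad, all below its lowest Hexa library at 54.8 (log2 0.39 ± 0.116, adjusted p = 0.0414). The other 7 standard subunits had differences between log2 0.11 and 0.34 and did not pass (adjusted p of 0.0970 to 0.439). Rpn8 alone overlapped, with 36.3 RPKM in Quad 3 and 35.4 in Hexa 1. With all libraries 23.1% of all tested genes passed in either direction. The share was 7.14 to 10.4% without a Quad library, Hexa 1 or Hexa 2, 18.5% without control 1 and 25.4% with TMM factors. Both calls were lost without any 1 of the Quad libraries, Hexa 1, Hexa 2 or control 1, and with RPKM divided by TMM factors. They were also lost with the heat shock covariate, where Prosbeta1 stood at log2 0.19 and Prosalpha2 at 0.29, and 5.75% of all tested genes passed. The library total as divisor lost them as well, at 0.28 and 0.14, where 27.7% of all tested genes passed. Prosalpha2 was lost as well without control 3 and in a fit of only the 2 groups, and Prosbeta1 without Hexa 3. With the library total the median of the standard subunits was 0.021, with 6 of 9 positive, and that of all tested genes -0.18. The distance between these medians was 0.202, against 0.210 on RPKM as deposited. With no filter on low values Rpt6R, a paralog, was the 1 member called, where 10.2% of all genes passed.

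**Figure D3:**
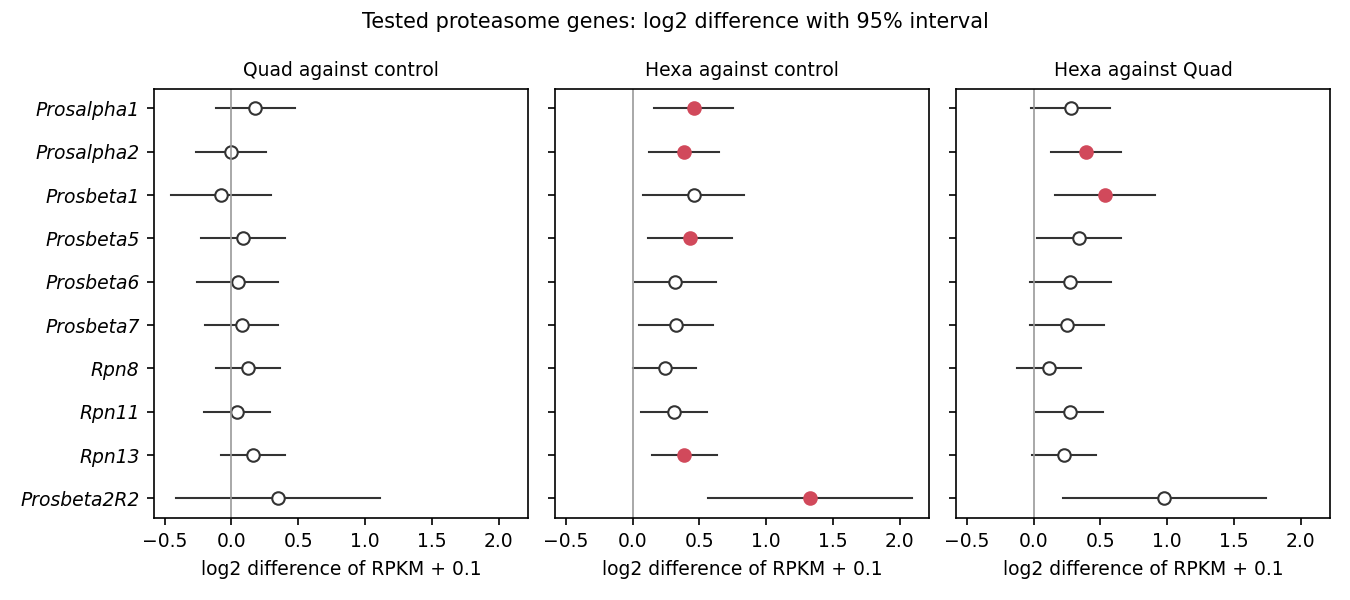
Difference of log2(RPKM + 0.1) with its 95% interval from limma for the 10 tested genes in the 3 comparisons; filled red points have an adjusted p under 0.05. In Quad against control all 10 intervals cross 0, and in Hexa against control all 10 points lie right of 0, with 5 of them filled, among them Prosbeta2R2, which entered the test only through its Hexa libraries.

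Core and regulatory particle were set beside each other. Their mean levels were nearly equal: the mean of the 6 core subunits divided by that of the 3 regulatory subunits was 0.976, 0.956 and 1.04 for controls 1 to 3. It was 0.921, 0.965 and 0.949 for the Quad libraries and 0.988, 1.12 and 1.02 for the Hexa libraries. In Hexa against control the median log2 difference was 0.41 in the core and 0.31 in the regulatory subunits, so the core stood 0.09 further up. This excess was largest in Hexa 2, where the core median was 0.59 above the control mean and the regulatory median 0.39. In Hexa 1 the order was the other way, at 0.27 and 0.30, and in Hexa 3 it was 0.31 and 0.26. The 2 parts of the particle were therefore not separated in all Hexa libraries, and only 3 regulatory subunits carry the comparison.

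The 8 paralogs were expressed at a small fraction of these levels. This does not extend to Prosalpha1R, which the symbol rule does not take and which had 15.3 to 29.2 RPKM as row CG30382. None of the 8 reached 1 RPKM in any library. Together the 8 summed to 1.15 to 2.85 RPKM, or 0.364 to 0.659% of the sum of the 9 standard subunits. Highest in the controls were Rpt3R, a relative of the base ATPase Rpt3, with 0.376 ± 0.0344 RPKM, and Prosbeta2R2, a relative of the trypsin-like subunit Prosbeta2, with 0.242 ± 0.106. Rpt4R and Rpt6R, relatives of other base ATPases, had 0.219 ± 0.0113 and 0.207 ± 0.0251. Prosalpha4T1 and Rpn13R had 0.111 ± 0.0349 and 0.0873 ± 0.0243 RPKM. Rpn13R can be set beside its standard partner, since both have rows: in RPKM it had at most 0.125 in the 6 control and Quad libraries, 0.222 and 0.433 in Hexa 1 and Hexa 2 and 0.0623 in Hexa 3, where Rpn13 itself stood between 35.2 and 55.4. Of the 2 lowest, Prosalpha6T was listed at 0 in 8 of 9 libraries and Rpn12R in 4.

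Prosbeta2R2 and Rpt6R were higher in Hexa. Prosbeta2R2 stood at 0.362, 0.204 and 0.161 RPKM in controls 1 to 3. Its Quad values were 0.240, 0.342 and 0.403, and its Hexa values 0.939, 0.810 and 0.514. Its Hexa libraries exceeded all others, while control and Quad overlapped. It passed the filter on low values only through Hexa and so had to differ in the main test, whose call is not used. With no filter 16.1% of all genes passed in limma against the control and 10.2% against Quad, in either direction. In that fit Prosbeta2R2 was called against the control (log2 1.33 ± 0.310, adjusted p = 0.0217) and did not pass against Quad (log2 0.98, adjusted p = 0.0724). Behind these values were 19 to 44 reads per control, 30 to 47 per Quad library and 60 to 82 per Hexa library, and on these counts edgeR gave log2 1.55 against the control (adjusted p = 0.0205). Among the filtered genes the log2 difference was 1.15 to 1.27 without control 3, Hexa 1 or Hexa 2. With the heat shock covariate it was larger, at 1.79. None of these passed, but the fits share that filter, so they cannot test how firm the call is.

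Rpt6R lay just under the filter, with 2 of its 3 Hexa libraries above 0.5 RPKM, so it had no place in the main test. Controls 1 to 3 had 0.180, 0.231 and 0.209 RPKM, Quad libraries 0.146, 0.279 and 0.227, and Hexa libraries 0.627, 0.413 and 0.578. No Hexa library overlapped another group. Reads numbered 24 to 31 per control, 20 to 34 per Quad library and 38 to 74 per Hexa library. In limma with no filter, where 16.1 and 10.2% of all genes passed, Rpt6R was called against the control (log2 1.05 ± 0.257, adjusted p = 0.0263) and against Quad (log2 1.02, adjusted p = 0.0377). On the counts edgeR gave log2 1.33 (adjusted p = 0.0207) and 1.23 (adjusted p = 0.0391).

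The other 6 paralogs were not called in any comparison by limma with no filter; on counts Rpn13R and Prosalpha4T1 were tested by edgeR and DESeq2 and not called either. Rpt4R had 0.208 to 0.231 RPKM in the controls, and both Quad (0.285 to 0.434) and Hexa (0.293 to 0.554) lay above that range without passing (adjusted p = 0.340 and 0.111 with no filter). The count column holds only 0 to 4 reads of Rpt4R per library, so its RPKM cannot be checked on counts. Rpt3R and Rpn13R overlapped between Hexa and control. Prosalpha4T1 was at most 0.0847 RPKM in Hexa and at least 0.0854 in the controls, on 2 to 5 and 7 to 12 reads, and did not pass with no filter (log2 -0.40, adjusted p = 0.476). Rpn12R and Rpn13R lie on the same strand as other annotated genes they overlap, so their few reads could in part belong to those.

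**Figure D4:**
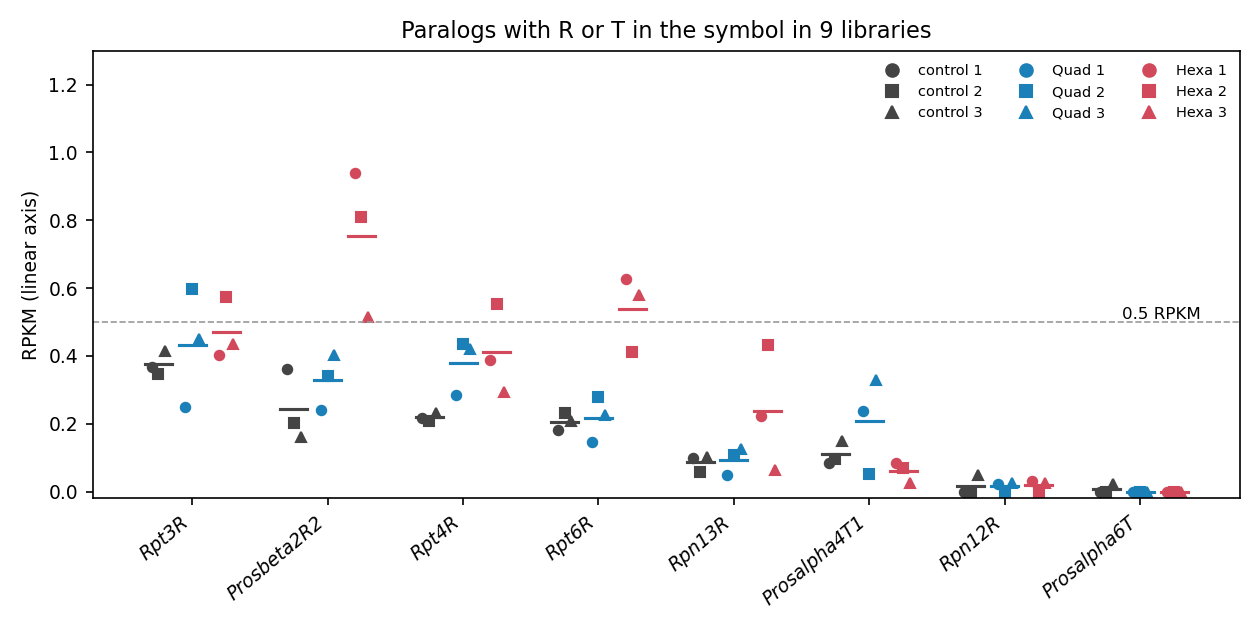
RPKM of the 8 paralogs in each library (points) with the group mean (line) on a linear axis; the dashed line marks the 0.5 RPKM of the filter. The 3 Hexa libraries (red) lie above all others for Prosbeta2R2 and Rpt6R, and no point reaches 1 RPKM.

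Markers of the male germline were read beside these paralogs, several of which are known from the testis. Of 20 listed genes with a row, 16 were under the filter, among them the spermatid chromatin genes ProtA, ProtB and Mst77F and the meiotic arrest genes aly, can, comr and sa at 0 to 0.216 RPKM. Of the 4 tested genes 1 rose and 1 fell in Hexa against the control. The testis tubulin gene betaTub85D had 0.510 to 0.661 RPKM in controls, 1.02 to 1.36 in Quad and 1.40 to 1.74 in Hexa, and rose in both (log2 0.84, adjusted p = 0.0432, and log2 1.21, adjusted p = 0.00285). The spermatid gene Mst87F and the dynein gene Dic61B stood at log2 0.62 and 0.52 in Hexa and did not pass (adjusted p = 0.0819 and 0.119). The RNA-binding protein gene bol, by far the highest of the list, fell from 38.7 to 62.6 RPKM in controls to 21.7 to 37.3 in Hexa (log2 -0.70, adjusted p = 0.0427). The summed level of the list, most of which is bol, was 42.6 to 67.2 RPKM in controls, 53.8 to 62.0 in Quad and 29.0 to 43.1 in Hexa. The part of germline cells in the paralog values was not tested.

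For 9 of the 17 genes reads per RPKM, relative to Prosalpha2 in the same library, were constant over the libraries within 5%. This measure cannot show a difference in scale between libraries. Prosalpha2 itself stood at log2 0.39 in Hexa against control on mean RPKM and at 0.31 on counts scaled to their library total. The 9 genes were Prosalpha2, which as the reference is constant by construction, Prosbeta1, Prosbeta6, Rpn11, Prosbeta2R2, Rpt6R, Rpn13R, Prosalpha4T1 and Rpn12R. The last has 12 reads in all. For others the count column held fewer reads than the RPKM calls for. Rpn13 had 0 reads in all 9 libraries at 35.2 to 55.4 RPKM, Rpn8 16 reads and Prosbeta7 14 reads in all. The paralogs Rpt3R and Rpt4R had 16 and 14 reads in all. Scaled to the library's total count, these stood at log2 -2.15 and -1.31 in Hexa against control, opposite to their RPKM. For Prosbeta5 the direction differed: its counts of 385, 497 and 320 in the controls and 209, 157 and 293 in Hexa gave log2 -0.60 in edgeR (adjusted p = 0.0870), opposite to its RPKM. The calls of Prosalpha1, Prosbeta5 and Rpn13 thus rest on RPKM alone. Among the 4 standard subunits with matching counts, edgeR gave log2 0.32 for Prosalpha2, 0.37 for Prosbeta1, 0.24 for Prosbeta6 and 0.23 for Rpn11 in Hexa against control, all positive and none called (adjusted p of 0.120 to 0.298).

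Other genes of the ubiquitin and proteasome pathway were read from lists made by role. Called genes and maf-S and REG are named by rule, and the others after their values were seen. Of 4 tested genes of proteasome assembly and associated factors, 1 rose in Hexa against the control and none fell, a share near the 19.1% of all tested genes: ntc, which encodes an F-box protein that binds a proteasome regulator in the fly testis, had 1.01, 1.42 and 1.17 RPKM in controls and 2.12, 1.90 and 1.67 in Hexa (log2 0.62 ± 0.191, adjusted p = 0.0359). Sem1, a small lid subunit, had 65.3, 50.8 and 71.9 RPKM in the controls and 80.8, 105 and 69.3 in Hexa, with overlap, and did not pass (log2 0.43, adjusted p = 0.0799). It shared the pattern of the standard subunits, with its lowest value in control 2 and its highest in Hexa 2. REG, an alternative cap of the core that acts without ubiquitin, and Pngl, an N-glycanase, were at log2 -0.15 and -0.17 (adjusted p = 0.285 and 0.221).

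The gene maf-S, which encodes the small Maf partner of cnc, stood at 109 to 128 RPKM in controls, 106 to 119 in Quad and 148, 199 and 148 in Hexa. It rose in Hexa against the control (log2 0.46 ± 0.140, adjusted p = 0.0366) and against Quad (log2 0.55, adjusted p = 0.0263), with Hexa 2 the highest library. cnc, Keap1 and Pomp are not analysed here.

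Of 5 tested genes of ubiquitin and its conjugation, 2 rose in Hexa against the control and none fell, where 19.1% of all tested genes rose. Both encode conjugating enzymes. The gene ben had 49.8, 48.4 and 55.1 RPKM in the controls and 65.0, 73.4 and 63.9 in Hexa (log2 0.40 ± 0.102, adjusted p = 0.0207), and Ubc10 had 27.1, 26.5 and 30.5 against 35.7, 40.2 and 32.5 (log2 0.36, adjusted p = 0.0435). Both also rose against Quad (adjusted p = 0.0202 and 0.0427), as did ntc (adjusted p = 0.0402). The polyubiquitin genes Ubi-p63E and Ubi-p5E and the conjugating enzyme gene eff did not pass, at log2 0.22, 0.07 and -0.34 (adjusted p of 0.147 to 0.774). In control 2, where the standard subunits were lowest, these 3 genes were at their highest among the controls. Of 3 tested genes of the COP9 signalosome, a complex related in structure to the proteasome lid, CSN1b, CSN3 and CSN7 stood at log2 0.23, 0.20 and 0.28 and did not pass (adjusted p of 0.0729 to 0.221). In Quad against control these 13 pathway genes did not pass either (adjusted p of 0.196 or more); the nearest was REG, at log2 -0.28.

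**Figure D5:**
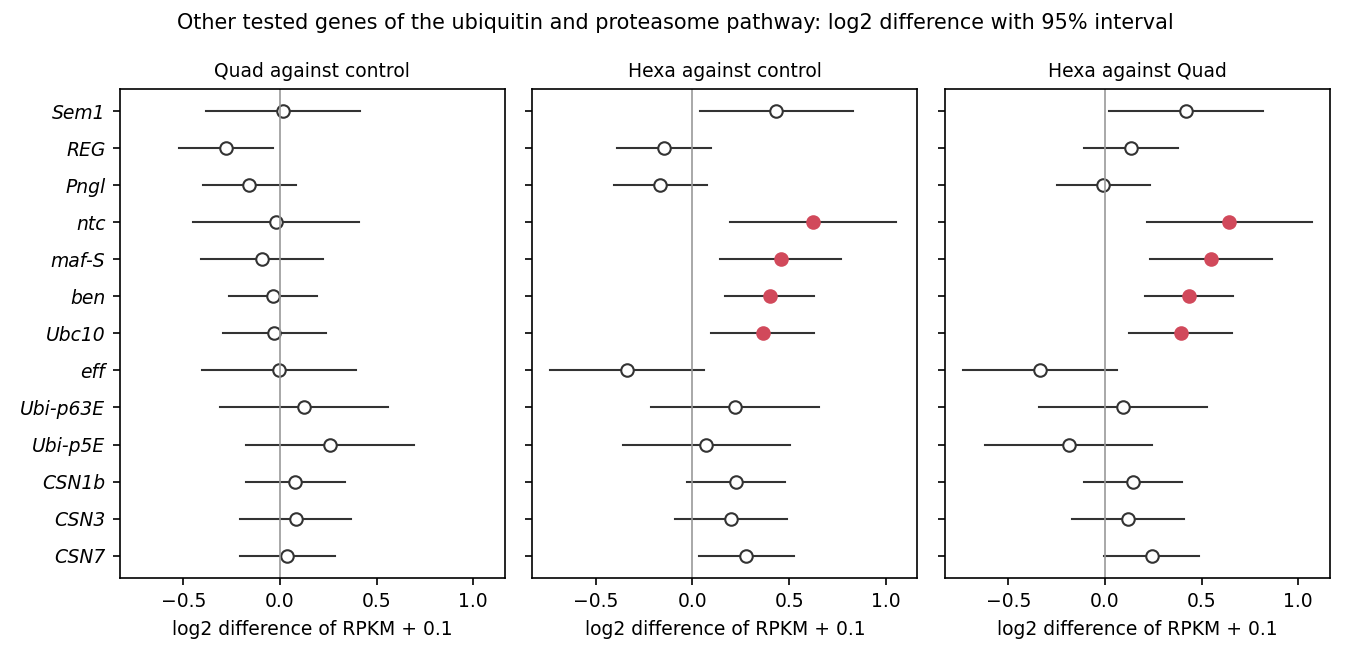
Difference of log2(RPKM + 0.1) with its 95% interval from limma for 13 other genes of the pathway in the 3 comparisons; filled red points have an adjusted p under 0.05. The genes ntc, maf-S, ben and Ubc10 are filled in both comparisons with Hexa and none in Quad against control.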

How the data were processed

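RNA of 9 whole-embryo libraries (3 per genotype, grouped by sample title) was sequenced with 150 bp reads, per the labels. The authors deposited 1 table with a raw count and a log2 RPKM per gene and library, per the file headers. Its 9 linear RPKM columns repeat the same values and were not used; their headers name another driver for controls 2 and 3. The sources used here name no aligner, counter, strand setting or genome build, and coordinates are left out. Log2 RPKM at the floor of -10.86 were taken as 0 on the linear scale. limma 3.58.1 (trend, robust; R 4.3.3) was fitted to log2(RPKM + 0.1) of the 6190 genes that reached 0.5 RPKM in 3 or more libraries, with group as the only term. edgeR 4.0.16 and DESeq2 1.42.0 on the deposited counts were alternatives, because the counts of many genes fall short of their RPKM. The limma, edgeR and DESeq2 fits were checked on simulated data; the alternatives within them were not simulated. Genes were matched to lists by symbol or RefSeq synonym. The members and lists were chosen with earlier results of these data known, so no test over a list was made. Named by rule were all 17 members, pathway genes called in any comparison, cnc, maf-S, Keap1, Pomp and REG, and the 6 misexpressed genes; other genes were named after their values were seen.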

Additional observations from a re-analysis of the deposited data

How the results depend on the processing

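In Quad against control the number of called proteasome genes was 0 under each alternative. In Hexa against control, where 5 were called with Prosbeta2R2 counted, it was 1 in a fit of only the 2 groups compared, 3 with TMM factors on RPKM, 1 with RPKM scaled to its library total, 0 with the heat shock covariate, 0 with Hexa 1 as the only Hexa library, and 2 in each edgeR and DESeq2 fit on the counts, where both were paralogs (Prosbeta2R2 and Rpt6R). Leaving out 1 library gave 0 to 5. Of standard subunits alone it was 0 for the 2 groups, 2 with TMM factors and 0 with the library total. In Hexa against Quad, where 2 were called, it was 1 without the filter, 1 in the fit of 2 groups and 1 in edgeR with TMM or with DESeq2 size factors. On counts and without the filter the genes called were paralogs, DESeq2 calling Prosbeta2R2 and Rpt6R. It was 0 with TMM factors on RPKM, the library total, the heat shock covariate, edgeR without a filter or Hexa 1 alone, and 0 to 2 with 1 library left out. With the replicate number as a block no standard subunit was called in the 2 comparisons with Hexa. The numbers were not taken as pairs, since not every same-numbered correlation was over 0.1: same-numbered libraries correlated at 0.0981 to 0.179 between Quad and control, where 6 of 6 correlated best with their own number, and at -0.152 to -0.0346 between Hexa and control, where 0 of 6 did; between Hexa and Quad they correlated at -0.0268 to 0.0724 and 3 of 6 did.

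The median log2 difference of the standard subunits stayed positive in Hexa. Against the control it went from 0.38 to 0.22 with the heat shock covariate and 0.20 with the library total, over 9 subunits. On counts it was 0.24 over 6 in edgeR, and over 8 it was 0.17 in edgeR without a filter and 0.19 in DESeq2. The 8 include Rpn8 and Prosbeta7, with 16 and 14 reads, and both sets include Prosbeta5. Against Quad the median of the standard subunits went from 0.27 to 0.021 with the library total, a scaling that moved the median of all tested genes by more than 0.1. Among 3 scalings the share of all calls that were higher was 59.3, 50.2 and 33.6% in Hexa against control and 58.4, 46.5 and 25.9% in Hexa against Quad (RPKM as deposited, TMM factors, library total). The excess of core over regulatory subunits in Hexa against control went from 0.09 to 0.0225 with the heat shock covariate, to -0.0348 with Hexa 1 alone, and in edgeR to 0.0020 (TMM) and 0.0023 (DESeq2 size factors). In Hexa against Quad edgeR gave 0.0082 and 0.0094. In these edgeR fits Rpn11 was the only regulatory subunit and the core included Prosbeta5, so they cannot compare the 2 parts. Without a count filter Rpn8, with 16 reads, enters the fit, and the excess became 2.04 in edgeR and 1.63 in DESeq2 against the control, 2.53 and 2.13 against Quad, and -0.45 and -0.47 in Quad against control. Prosbeta5 reversed on counts in Hexa against control, at -0.60, -0.59 and -0.59 in edgeR and -0.59 in DESeq2, where its counts hold part of its reads. The fits with Hexa 1 alone, which assume that this library varies like the other groups, and with the library total were chosen after seeing the data. Over all genes the calls also varied: 1997 in Hexa against control became 574 with the heat shock covariate, 865 with Hexa 1 alone, 925 in the fit of 2 groups and 949 to 1033 in edgeR, and 962 to 2199 with 1 library left out. In Hexa against Quad 1431 became 356 with the covariate, 640 with Hexa 1 alone, 882 with the block and 637 to 686 in edgeR, and 442 to 2004 with 1 left out. In Quad against control 290 became 132 to 363 with 1 left out. Depth limits the paralogs, where 1 library holds at most 82 reads of a gene.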

Other observations

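The genes in these sentences were chosen after their values were seen. The conjugating enzyme gene Ubc84D, below the filter, had 0 to 0.118 RPKM in controls, 0.0497 to 0.0745 in Quad and 0.142 to 0.394 in Hexa, with no overlap between Hexa and the others on 62 reads in all. The ratio of Prosalpha1 to CG30382 was 1.20 to 1.23 in controls, 1.20 to 1.34 in Quad and at most 1.19 in Hexa. Of the 5 early germ cell genes 2 fell in Hexa against the control, gcl and ovo (limma log2 -0.32 and -0.52, adjusted p = 0.0477 and 0.0367), and none rose; vas did not pass (log2 0.38, adjusted p = 0.0683). Their summed level was 61.9 to 74.5 RPKM in Hexa and 78.3 to 85.4 in controls, most of it from gcl.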
